A study of Hipposideros armiger and Mus musculus with 20 samples.

Results

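Intra-abdominal white fat (aWAT) and subcutaneous white fat (sWAT) of the great roundleaf bat (Hipposideros armiger) were compared after 1 week in the cold. The comparison was chosen by its labels and takes 4 of the 20 libraries of the series, which also holds mouse libraries. The groups were aWAT from wild type bats kept at 10 °C for 7 days (2 libraries, 1 female and 1 male) and sWAT from wild type bats kept in the same way (2 libraries, 1 female and 1 male). The same depots from wild type bats kept at 30 °C for 7 days (2 libraries each) gave the difference between the depots in the warm, and interscapular brown fat (iBAT, 2 libraries at each temperature) gave a level for comparison. All groups share the wild type background and the 7 days in the chamber. The labels give no age and do not say which libraries came from the same bat, so p-values measure the spread between these libraries.

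White fat stores triglyceride in cells with a single large droplet and few mitochondria. Brown fat burns fatty acids in many mitochondria, and Ucp1 in the inner membrane lets protons back in without making ATP, so that the energy leaves as heat. In mice, cold and noradrenaline make fat cells with Ucp1 and many mitochondria appear in white depots, which is called browning, and in that species it is usually stronger in subcutaneous than in visceral fat. Depots also carry a record of their place in the body, since fat cells and their precursors keep the Hox, Tbx and Wt1 genes of the region they came from, and visceral fat is covered by mesothelium.

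Each library gave an FPKM value, a read count corrected for transcript length and library size, for 14871 genes under mouse identifiers. Summed FPKM was 354137 and 342560 in aWAT at 10 °C, against 294103 and 301792 in sWAT at 10 °C. Read totals are unknown, but low values put the depth of the aWAT libraries at 1.039 and 1.014 and of the male sWAT library at 1.191, relative to the female sWAT library. Some genes used by every cell lay near 0, among them Actb at 0 and 0 FPKM in cold aWAT, against 6.15 and 20.1 FPKM in cold sWAT, so a gene near 0 was not taken as absent. Fat cell genes were high in all 4 cold libraries. Adipoq, the fat cell hormone adiponectin, had 392 and 579 FPKM in aWAT, against 1386 and 1143 FPKM in sWAT, and Plin1, the main coat protein of the fat droplet, had 938 and 868 FPKM, against 1112 and 1124 FPKM.

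Transcripts of heat production, mitochondria and fat oxidation were higher in cold aWAT than in cold sWAT, and those of muscle, matrix and macrophages were lower. Of 11025 genes that reached 1 FPKM in 2 or more bat libraries, 2416 differed at 10 °C at an adjusted p under 0.05 by limma (21.9% of those tested), 1146 higher in aWAT (10.4%) and 1270 lower (11.5%). Of these calls, 1139 of the higher and 1144 of the lower would have passed the filter on low values in the other bat libraries. The rest entered the test only with the values of the cold aWAT and sWAT libraries. At 30 °C limma called 98 genes (0.889%), 73 higher (0.662%) and 25 lower (0.227%). Both aWAT libraries lay above both sWAT libraries in 2950 genes (26.8%) and below them in 4016 (36.4%). Of the higher calls at 10 °C, 854 were at least 2-fold and 235 at least 4-fold, and of the lower calls 624 and 127. Differences are on the log2(FPKM + 1) scale, given ± SE with 2 libraries per group and less the median of all genes tested, which was −0.10 at 10 °C and −0.27 when the libraries were scaled without their 10 highest genes. With that scaling 890 genes were called higher and 2076 lower. The number called was 957 without the female aWAT library, 1246 without the female sWAT library and 1070 without the male sWAT library.

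Across the 11025 genes, the log2 levels of both cold aWAT libraries lay nearer to cold iBAT than to cold sWAT. The female library correlated at r = 0.966 with the male aWAT library, at 0.977 and 0.965 with the female and male iBAT libraries at 10 °C, and at 0.871 and 0.847 with the sWAT libraries at 10 °C. The male library correlated at 0.940 and 0.953 with cold iBAT, at 0.915 and 0.941 with aWAT at 30 °C and at 0.898 and 0.896 with cold sWAT. These are correlations across genes, which are not independent replicates, and they are given as a description.

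Ucp1 (ENSMUSG00000031710) stood at the head of the genes higher in cold aWAT. It had 7184 and 2939 FPKM in aWAT at 10 °C, against 0.826 and 1.20 FPKM in sWAT at 10 °C. At 30 °C it had 3.18 and 2.67 FPKM in aWAT, against 0.410 and 0.570 FPKM in sWAT, and cold iBAT had 10405 and 7239 FPKM. The female aWAT library was the higher of the pair, and neither came near the sWAT libraries. The difference at 10 °C was 11.26 ± 0.35 (adjusted p = 2.74e-07), and at 30 °C it was 1.31 ± 0.35 (adjusted p = 0.169).

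**Figure D1:**
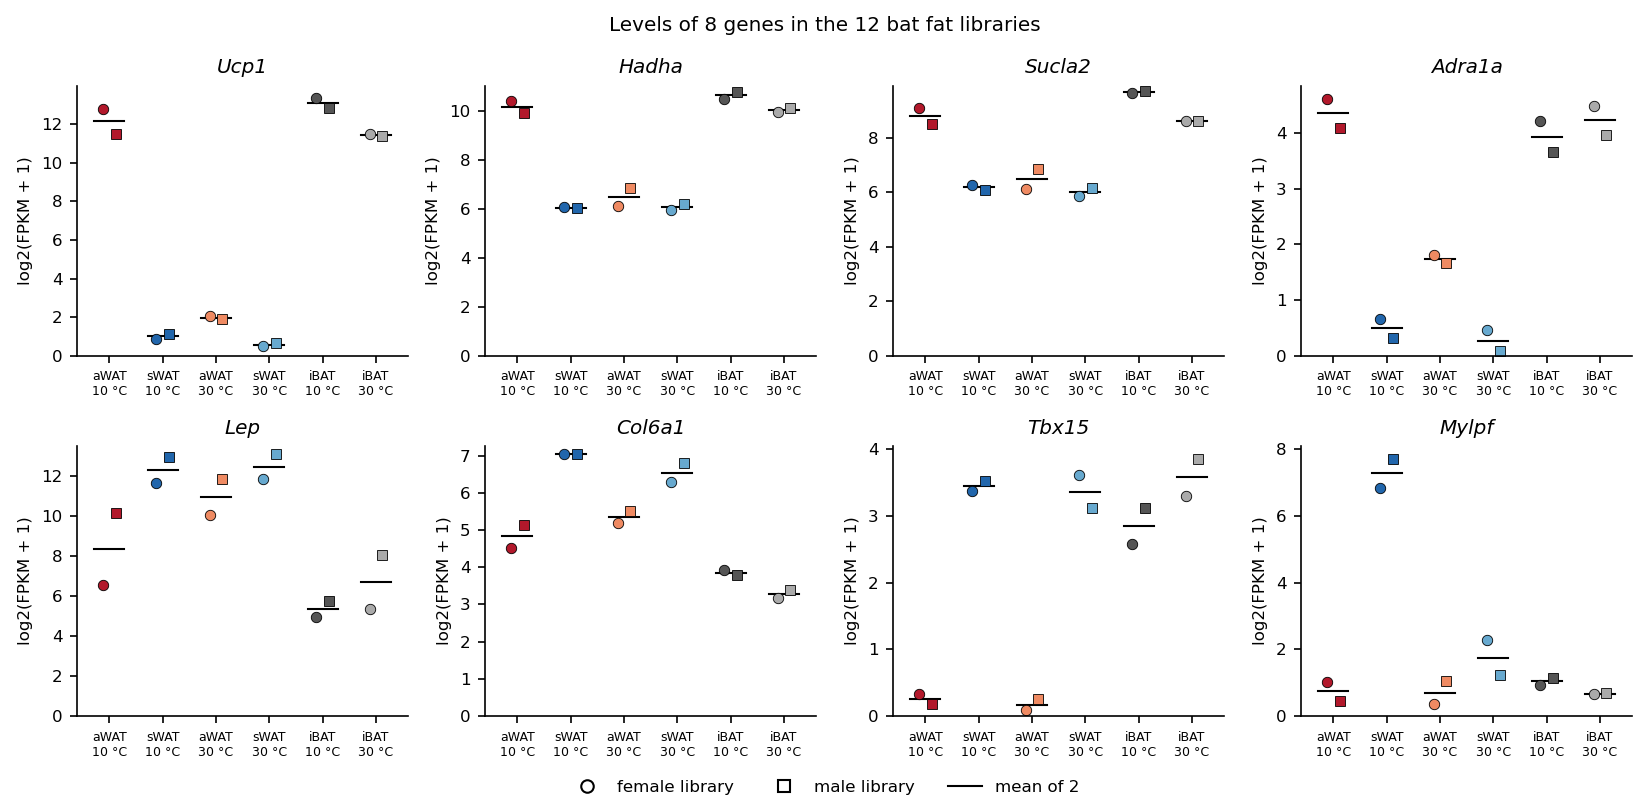
Levels of 8 genes as log2(FPKM + 1) in each of the 12 bat libraries, by depot and temperature, with circles for female libraries, squares for male libraries and a bar for the mean of 2. Ucp1, Hadha, Sucla2 and Adra1a are high in aWAT at 10 °C and in iBAT, Lep and Col6a1 are lower in aWAT than in sWAT, Tbx15 is near 0 in aWAT at both temperatures, and Mylpf, a muscle gene, is high in sWAT at 10 °C.

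Other thermogenic genes were higher in cold aWAT too. Of 32 tested brown fat and thermogenic genes 17 were higher and 4 lower, with a median difference of 1.54. Over all genes 10.4% were called higher and 11.5% lower, so the lower count was near that share. Cpt1b, which brings long-chain fatty acids into mitochondria, had 121 and 75.4 FPKM in aWAT, against 10.8 and 9.41 FPKM in sWAT (3.22 ± 0.23, adjusted p = 2.97e-05). Letmd1, a mitochondrial protein needed for brown fat heat production in mice, had 73.1 and 40.7 FPKM, against 5.61 and 3.79 FPKM (3.41 ± 0.29, adjusted p = 8.20e-05). Both aWAT libraries were far above both sWAT libraries for each of these genes. Esrra, a nuclear receptor that drives mitochondrial genes, had 168 and 124 FPKM, against 23.9 and 20.9 FPKM (2.74 ± 0.23, adjusted p = 7.86e-05). Its partner Ppargc1a, the coactivator PGC-1α, had 21.8 and 47.9 FPKM, against 5.61 and 1.49 FPKM (3.14 ± 0.56, adjusted p = 0.00461, and 0.0524 with a pseudocount of 0.1). Cox7a1 (2.21 ± 0.26), a heart and brown fat form of a cytochrome oxidase subunit, Clstn3 (2.81 ± 0.32), whose brown fat form shapes the lipid droplet in mice, and Pdk4 (3.56 ± 0.54), which turns pyruvate away from the mitochondria, were also higher (adjusted p = 0.000457, 0.000379 and 0.0018).

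Several classical markers did not pass. Cidea, a droplet protein of mouse brown fat, had 1587 and 1846 FPKM in aWAT and 1447 and 770 FPKM in sWAT (0.80 ± 0.48, adjusted p = 0.331), so it was high in both cold depots. Prdm16, a regulator of brown fat fate, overlapped between depots, with 4.31 and 0.300 FPKM in aWAT and 0.573 and 0 FPKM in sWAT (adjusted p = 0.338). Dio2, which activates thyroid hormone, had 0.436 and 4.62 FPKM, against 0.408 and 0.153 FPKM (1.26 ± 0.50, adjusted p = 0.129). Without the female aWAT library, the call of Dio2 passed (adjusted p = 0.00411). Fgf21, a hormone that brown fat can release, lay below the filter, at 0.224 and 0 FPKM in aWAT and listed at 0 in both sWAT libraries. The 4 lower members, named after their values were seen because they are few, were S100b, a calcium-binding protein that Schwann cells also make, Ntrk3, a neurotrophin receptor, Slc29a1, a nucleoside transporter, and Ucp2, a relative of Ucp1 that macrophages also carry. Without the female sWAT, male sWAT or female aWAT library, 0, 1 and 0 members were called lower, and 14, 14 and 13 higher.

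The receptors through which noradrenaline acts differed in opposite directions. Adra1a (ENSMUSG00000045875), the α1A receptor, had 23.6 and 16.1 FPKM in aWAT at 10 °C, against 0.584 and 0.246 FPKM in sWAT (3.97 ± 0.28, adjusted p = 2.98e-05). It was already higher at 30 °C, with 2.52 and 2.16 FPKM in aWAT, against 0.371 and 0.0556 FPKM in sWAT (1.39 ± 0.28, adjusted p = 0.0493). Adrb3, the β3 receptor of fat cells, had 46.2 and 36.8 FPKM, against 2.38 and 5.52 FPKM (3.27 ± 0.61, adjusted p = 0.00577, and 0.0525 without the female aWAT library). Its warm levels lay between these values, with 37.5 and 17.8 FPKM in aWAT and 33.2 and 6.38 FPKM in sWAT, so both cold sWAT libraries were below every warm one. Adra2a, the α2A receptor that restrains cAMP, had 0.276 and 0.619 FPKM, against 11.1 and 4.63 FPKM (−2.42 ± 0.32, adjusted p = 0.000577). Of 17 adrenergic and cAMP genes tested, 4 were higher and 3 lower, but 1 was higher and 1 lower without the female aWAT library, and 2 were higher and 2 lower without the male sWAT library. Prkar2b (1.77 ± 0.37) and Prkaca (1.21 ± 0.25), subunits of protein kinase A, were the other higher genes, and Gnai1 (−0.80 ± 0.17), an inhibitory G protein, and Adcy5 (−1.11 ± 0.38), an adenylyl cyclase, the other lower ones (adjusted p = 0.0115, 0.0109, 0.00533 and 0.0468). Among all genes 10.4% were called higher and 11.5% lower.

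Nuclear genes of the mitochondrial electron transport chain were higher as a group. Of 38 electron transport chain genes, 34 were higher and 1 lower in cold aWAT, with a median of 2.03, where 10.4% of all genes were called higher. Both aWAT libraries lay above both sWAT libraries in 35 and below them in 2, against 26.8% and 36.4% of all genes. Summed over the list, FPKM was 22075 and 15337 in cold aWAT, against 4707 and 4469 in cold sWAT, and it was 25995 and 28306 in cold iBAT. By complex, 16 of 17 subunits of complex I, all 4 of complex II, all 5 of complex III, 2 of 3 of complex IV and 6 of 8 of the ATP synthase were higher, with medians of 2.04, 2.07, 2.35, 1.17 and 1.76, as was cytochrome c (2.52). Ndufv1, which takes electrons from NADH in complex I, had 479 and 351 FPKM, against 83.1 and 90.4 FPKM (2.33 ± 0.21, adjusted p = 0.000105). Cyc1, cytochrome c1 of complex III, had 202 and 124 FPKM, against 29.9 and 29.0 FPKM (2.49 ± 0.25, adjusted p = 0.000209). Ndufs1, the largest subunit of complex I, had 168 and 168 FPKM, against 37.3 and 38.3 FPKM (2.23 ± 0.21, adjusted p = 0.000138). Ndufb8 (0.48), Cox6b1 (0.86) and Atp5j (−0.28) did not pass, though Atp5j was called lower with quantile normalization (adjusted p = 0.0202). The lower member was Atp5g3, from a family of near-identical proteins whose reads are uncertain, with 40.6 and 40.2 FPKM, against 74.3 and 70.3 FPKM (−0.72 ± 0.26, adjusted p = 0.0467). Its call was lost without each of the 4 cold libraries in turn, at adjusted p between 0.112 and 0.17.

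The TCA cycle, which feeds that chain, was higher in the same libraries. Of 20 genes in the list of the cycle and of pyruvate dehydrogenase 18 were higher and none lower by limma (all 20 higher and 0 lower at an unadjusted p under 0.05), with a median of 2.04. Limma called 10.4% of all genes higher. The 18 include Mdh1, the cytosolic enzyme, and Pdk1 (1.33), a kinase that restrains pyruvate dehydrogenase. Sucla2 (ENSMUSG00000022110), a succinyl-CoA synthetase subunit, had 545 and 366 FPKM in cold aWAT, against 76.9 and 66.7 FPKM in cold sWAT (2.72 ± 0.27, adjusted p = 0.000171). Mdh1 (2.50 ± 0.25), cytosolic malate dehydrogenase, which lies outside the cycle, and Pdhx (2.31 ± 0.23), a scaffold of pyruvate dehydrogenase, followed (adjusted p = 0.000223 and 0.000189). The 2 that did not pass were Idh2 (1.11 ± 0.37, adjusted p = 0.0773, and 0.0338 with the 4 cold libraries alone in the fit) and Mdh2 (0.95 ± 0.32, adjusted p = 0.0812, and 0.0283 without the male aWAT library).

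Fatty acid oxidation showed the highest median of the lists in the plot of gene lists, 2.15, with 18 of 22 genes higher and none lower by limma (19 higher and 0 lower at an unadjusted p under 0.05). Limma called 10.4% of all genes higher. Hadha and Hadhb are the α and β subunits of the mitochondrial trifunctional protein, which carries out the last steps of each turn of the spiral on long chains. Hadha (ENSMUSG00000025745) had 1350 and 949 FPKM in cold aWAT, against 66.0 and 63.9 FPKM in cold sWAT (4.20 ± 0.27, adjusted p = 1.75e-05), and 1430 and 1746 FPKM in cold iBAT. Hadhb had 2172 and 1289 FPKM, against 110 and 93.7 FPKM (4.13 ± 0.29, adjusted p = 2.96e-05). Both subunits were higher in each aWAT library than in either sWAT library. Etfdh, which hands the electrons of this pathway to ubiquinone, had 484 and 351 FPKM, against 38.5 and 31.1 FPKM (3.64 ± 0.24, adjusted p = 1.89e-05). Acadm, the medium-chain acyl-CoA dehydrogenase, had 1512 and 926 FPKM, against 112 and 101 FPKM (3.56 ± 0.25, adjusted p = 2.97e-05). Crat, carnitine acetyltransferase, was higher at 10 °C (2.22 ± 0.18, adjusted p = 7.14e-05) and at 30 °C (0.85, adjusted p = 0.0495). The 4 that did not pass were Cpt1a (0.46), the liver-type partner of Cpt1b, Acsl1 (0.86), Acad10 (0.68) and Acad11 (0.51).

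**Figure D2:**
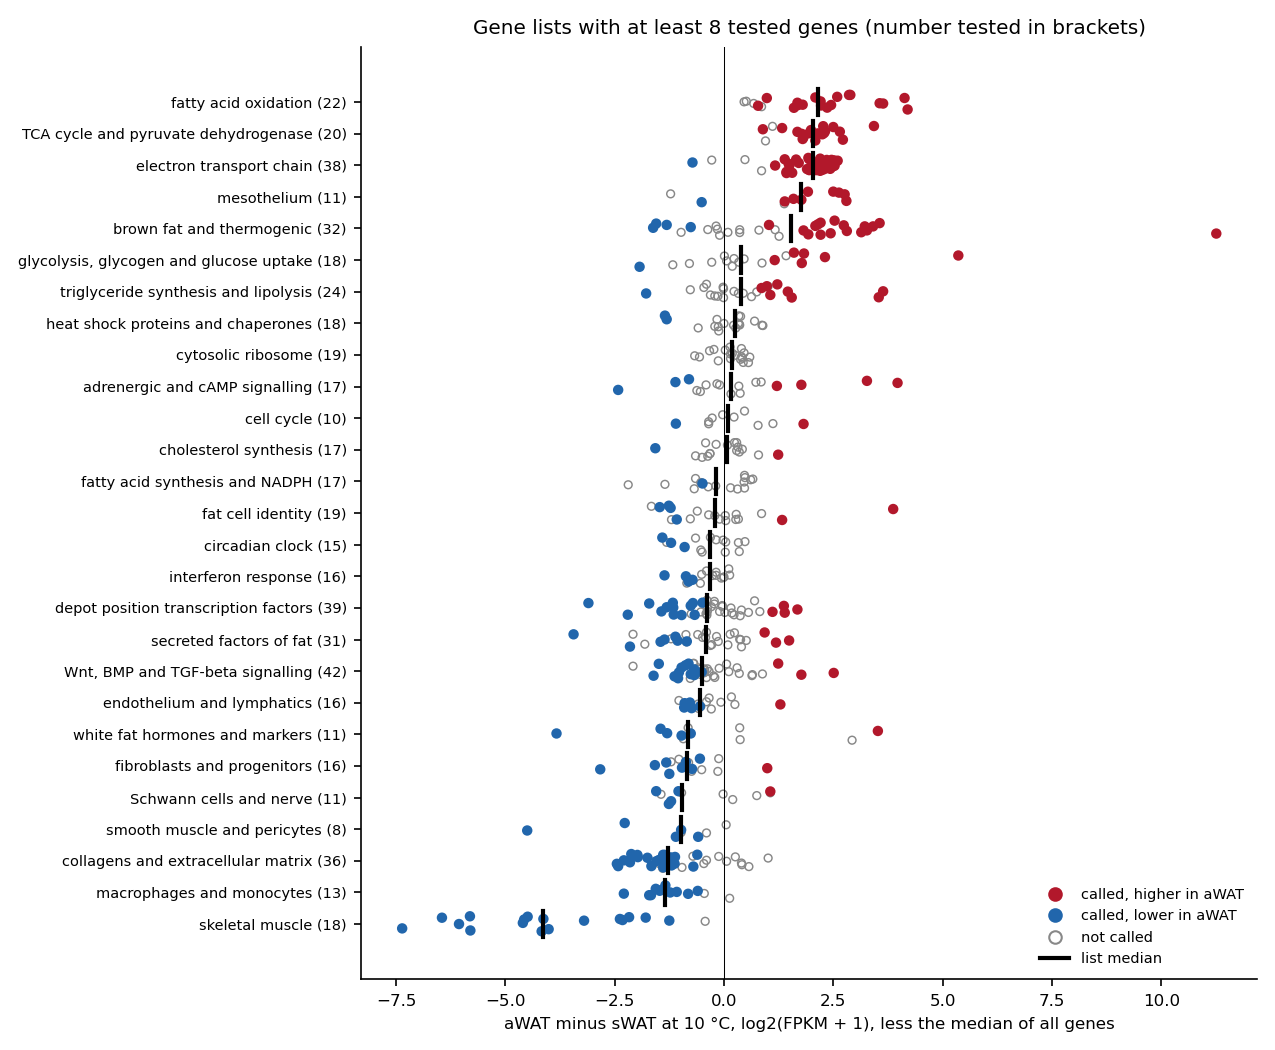
Difference between aWAT and sWAT at 10 °C for each tested gene of the lists with at least 8 tested genes, on the log2(FPKM + 1) scale less the median of all genes, with filled points for genes called at an adjusted p under 0.05, open points for the rest and a bar at each list's median. The lists of fatty acid oxidation, the TCA cycle and electron transport lie to the right, with medians of 2.15, 2.04 and 2.03, and skeletal muscle, macrophages and matrix lie to the left, with medians of −4.15, −1.34 and −1.28, and 8 of the 18 muscle genes would have passed the filter on low values in the 8 other bat libraries.

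Of 24 genes of triglyceride turnover 8 were higher and 1 lower, with a median of 0.39, and 4 were higher without the female aWAT, the female sWAT or the male sWAT library, and 5 without the male aWAT library. Gk, glycerol kinase, had 18.3 and 6.65 FPKM in aWAT, against 0.116 and 0.131 FPKM in sWAT (3.54 ± 0.35, adjusted p = 0.000171). Gpd2, the mitochondrial glycerol phosphate dehydrogenase, had 27.2 and 29.4 FPKM, against 1.60 and 1.44 FPKM (3.64 ± 0.40, adjusted p = 0.000319). Agpat3 (1.55 ± 0.19), an acyltransferase, and Lpin1 (1.46 ± 0.17), a phosphatidate phosphatase, were also higher (adjusted p = 0.000624 and 0.000519). The lower gene was Plin4, a droplet coat protein of white fat cells, with 54.2 and 64.8 FPKM, against 228 and 214 FPKM (−1.78 ± 0.46, adjusted p = 0.0173, and 0.0826, 0.0768 and 0.112 without the female sWAT, male sWAT and female aWAT library). Plin1 did not pass (−0.21 ± 0.26, adjusted p = 0.426). Limma called 10.4% of all genes higher and 11.5% lower, so the count of lower genes did not exceed its share.

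Few lipogenic genes passed. Of 17 fatty acid synthesis and NADPH genes none was higher and 1 was lower by limma (0 and 3 at an unadjusted p under 0.05), with a median of −0.19. Neither count exceeded the share of all genes called by limma, 10.4% higher and 11.5% lower. Fasn, fatty acid synthase, had 107 and 43.3 FPKM in aWAT, against 438 and 259 FPKM in sWAT (−2.19 ± 1.27, adjusted p = 0.228). With the 4 cold libraries alone in the fit the adjusted p was 0.0228. Acly, ATP citrate lyase, had 34.2 and 24.5 FPKM in aWAT, and 27.1 and 28.7 FPKM in sWAT, so the depots overlapped. The lower gene was G6pdx, glucose 6-phosphate dehydrogenase, with 32.5 and 30.4 FPKM, against 48.8 and 48.4 FPKM (−0.51 ± 0.19, adjusted p = 0.0417, and 0.117 to 0.15 without each cold library in turn).

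Of 18 genes of glycolysis, glycogen and glucose uptake 6 were higher and 1 was lower, with a median of 0.40, and 3 were higher without the male sWAT library and 2 without the female aWAT library. Ldhb (ENSMUSG00000030246), the heart form of lactate dehydrogenase, had 1999 and 1121 FPKM in cold aWAT, against 48.7 and 29.8 FPKM in cold sWAT (5.36 ± 0.45, adjusted p = 7.14e-05). It was higher at 30 °C as well, with 116 and 146 FPKM in aWAT, against 13.4 and 39.2 FPKM in sWAT (2.36 ± 0.45, adjusted p = 0.039). Eno1, an enolase, was higher at 10 °C (1.60 ± 0.23, adjusted p = 0.00153), and so was Tpi1, triose phosphate isomerase (1.78 ± 0.32, adjusted p = 0.00555, and 0.0577 without the female aWAT library). The lower gene was Fbp2, the muscle form of fructose bisphosphatase, with 0.577 and 0.989 FPKM, against 6.10 and 6.37 FPKM (−1.93 ± 0.37, adjusted p = 0.00419). As 10.4% of all genes were called higher and 11.5% lower, the lower count in this list did not exceed its share.

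Of the 10 genes with the largest positive differences, both aWAT libraries above both sWAT libraries and a mean of at least 5 FPKM, 6 belong to none of the lists, and the other 4 were Ucp1, Ldhb, Hadha and Hadhb. Kcnk16 (ENSMUSG00000023387), a potassium leak channel known from the pancreas, had 148 and 63.4 FPKM in cold aWAT, against 1.19 and 0.143 FPKM in cold sWAT (6.05 ± 0.44, adjusted p = 3.06e-05). It had 128 and 115 FPKM in cold iBAT, and at 30 °C it was higher in aWAT too (2.29 ± 0.44, adjusted p = 0.0422). Chga, chromogranin A of secretory granules, had 83.4 and 26.3 FPKM, against 0.213 and 0.278 FPKM (5.37 ± 0.87, adjusted p = 0.0024). Serhl, a serine hydrolase, had 47.1 and 51.2 FPKM, against 0.122 and 0.205 FPKM (5.53 ± 0.38, adjusted p = 2.48e-05). Each of these genes was at or below 1.19 FPKM in both sWAT libraries. Rap1gap, which switches off the small GTPase Rap1, had 81.4 and 33.1 FPKM, against 1.25 and 1.29 FPKM (4.65 ± 0.34, adjusted p = 3.49e-05). Shd, an adaptor with an SH2 domain, had 32.6 and 14.2 FPKM, against 0.145 and 0.0594 FPKM (4.46 ± 0.34, adjusted p = 3.79e-05). Fabp7 was the last of the 6, with 1688 and 3454 FPKM, against 11.8 and 35.4 FPKM (6.90 ± 0.94, adjusted p = 0.000926). It belongs to a family of close relatives, so the member that these reads came from is uncertain, and the same holds for Pmp2, of the same family (3.89 ± 0.39, adjusted p = 0.000174).

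The 10 genes with the largest negative differences by the same rule were all genes of striated muscle. Tnnc1 (ENSMUSG00000091898), slow muscle troponin C, was listed at 0 in both cold aWAT libraries, against 107 and 287 FPKM in cold sWAT. Tcap, which caps titin, had 0.160 and 0.166 FPKM, against 93.9 and 199 FPKM (−6.79 ± 0.44, adjusted p = 1.69e-05). Mylpf, a fast muscle myosin light chain, had 1.01 and 0.374 FPKM, against 114 and 210 FPKM (−6.45 ± 0.40, adjusted p = 1.63e-05). The male sWAT library was higher than the female one for each of these genes. The others were Tnni2, Ckm, Tnnc2, Myh8, Atp2a1, Myl3 and Myh6, with differences between −6.06 and −4.98, and the myosin heavy chains among them are near-identical in sequence.

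Of 18 skeletal muscle genes tested 17 were lower in cold aWAT, where 11.5% of all genes were called lower. In the other 8 bat libraries 8 of the 18 would have passed the filter on low values, so the rest entered the test through the cold sWAT libraries. Without the female or the male sWAT library 11 were tested and 10 lower. The list of 21 genes summed to 146 and 180 FPKM in cold aWAT, against 849 and 1760 FPKM in cold sWAT. In the 8 libraries of other groups it summed to between 101 and 230 FPKM. Of the 21 genes, 3 were listed at 0 in both cold aWAT libraries and none in both cold sWAT libraries. The member that did not pass, Myl2, had 81.5 and 113 FPKM in aWAT and 117 and 164 FPKM in sWAT, and made up most of the sum in the aWAT libraries. It was called lower with quantile normalization (adjusted p = 0.0247) and when scaled without the 10 highest genes (adjusted p = 0.0365). The part of the muscle transcripts in the differences below, where sWAT was the higher depot, was not tested. In whole tissue, fewer cells of a type and less RNA per cell cannot be told apart.

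**Figure D3:**
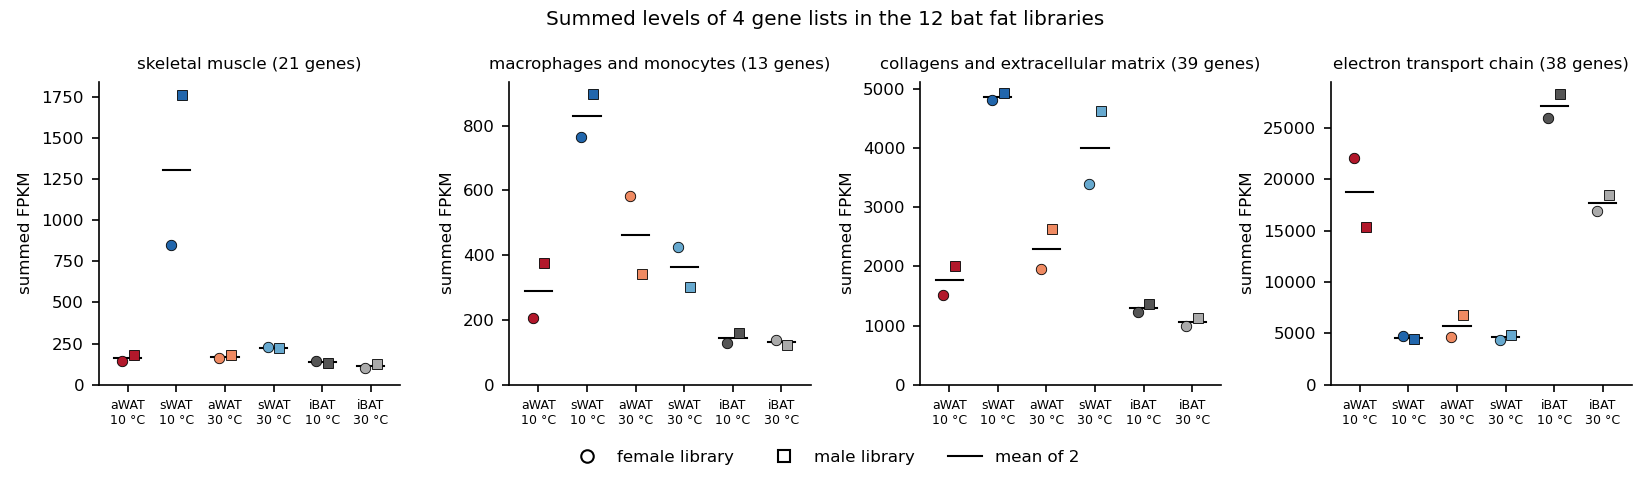
Summed FPKM of 4 gene lists in each of the 12 bat libraries, by depot and temperature, with circles for female libraries, squares for male libraries and a bar for the mean of 2. The skeletal muscle list is at 849 and 1760 in sWAT at 10 °C and between 101 and 230 in all other groups, macrophage and matrix lists are lower in cold aWAT than in cold sWAT, and the electron transport chain list is at 22075 and 15337 in cold aWAT.

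The hormone genes Lep and Adipoq were lower in cold aWAT, in calls that rested on single libraries. Lep (ENSMUSG00000059201), the gene of leptin, had 93.6 and 1151 FPKM in aWAT, against 3166 and 7972 FPKM in sWAT (−3.83 ± 1.19, adjusted p = 0.0402). The female library was below the male one in both depots. At 30 °C it had 1062 and 3631 FPKM in aWAT and 3674 and 8635 FPKM in sWAT (−1.60 ± 1.19, adjusted p = 0.82). The call at 10 °C was lost without the female sWAT, male sWAT or female aWAT library (adjusted p = 0.0784, 0.201 and 0.298). Adipoq was lower by a smaller amount (−1.30 ± 0.35, adjusted p = 0.0192), and without the same libraries its adjusted p was 0.11, 0.0663 and 0.151. Rbp4, which makes the retinol carrier that fat and liver secrete, did not follow them, with 1948 and 980.0 FPKM in cold aWAT and 268 and 140.0 FPKM in cold sWAT (2.93 ± 1.10, adjusted p = 0.0947, and 0.0105 with the 4 cold libraries alone in the fit), and was named after its values were seen. Of 11 white fat hormone and marker genes 5 were lower and 1 was higher, where 11.5% of all genes were called lower and 10.4% higher. The higher count was thus near its share. Beside Lep and Adipoq the lower ones were Hoxc8, Hoxc9 and Trem2, a receptor of lipid-laden macrophages, and the higher one was Nnat, an imprinted membrane protein, with 4.01 and 21.9 FPKM in aWAT and listed at 0 in both sWAT libraries. The call of Nnat was lost without each of the 4 cold libraries in turn (adjusted p between 0.0509 and 0.192), and the counts of lower genes were 3, 2 and 1 without the female sWAT, male sWAT and female aWAT library.

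Among the regulators of the fat cell itself, the master factor Pparg did not differ beyond the spread, with 184 and 178 FPKM in aWAT and 198 and 180 FPKM in sWAT (0.04 ± 0.17, adjusted p = 0.827, and −0.44 with quantile normalization, adjusted p = 0.0798). Its partners diverged. Rxrg had 372 and 476 FPKM in cold aWAT, against 32.2 and 27.8 FPKM in cold sWAT (3.87 ± 0.39, adjusted p = 0.000181), and it was also higher at 30 °C (1.92 ± 0.39, adjusted p = 0.0493). Rxra had 14.4 and 16.8 FPKM, against 38.6 and 44.6 FPKM (−1.26 ± 0.19, adjusted p = 0.00103). In the fat cell list the count of higher genes was near the 10.4% of all genes called higher, and 11.5% were called lower. Of 19 fat cell identity genes 2 were higher, the other being Cebpb (adjusted p = 0.216, 0.199 and 0.0502 without the male sWAT, female aWAT and male aWAT library), and 4 were lower, Rxra, Cebpa, Cebpd and Cavin1, a coat protein of caveolae. Cebpa had 106 and 93.6 FPKM, against 282 and 222 FPKM (−1.22 ± 0.27, adjusted p = 0.00822, and 0.0638 without the female sWAT library). Without that library 2 of the 19 were lower.

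Genes of the extracellular matrix were lower in cold aWAT. Of 36 tested, 22 were lower and none higher by limma (26 and 0 at an unadjusted p under 0.05), with a median of −1.28, where 11.5% of all genes were called lower. Their sum was 1524 and 2016 FPKM in cold aWAT, against 4810 and 4931 FPKM in cold sWAT. Col6a1 (ENSMUSG00000001119), a chain of collagen VI around fat cells, had 21.9 and 34.3 FPKM, against 131 and 132 FPKM (−2.12 ± 0.24, adjusted p = 0.000279). Dcn, the small proteoglycan decorin, had 296 and 407 FPKM, against 1315 and 1047 FPKM (−1.66 ± 0.21, adjusted p = 0.000451). Col1a1, a chain of the main fibrillar collagen, had 10.2 and 30.6 FPKM, against 94.5 and 121 FPKM (−2.42 ± 0.40, adjusted p = 0.00182). Lama2, a laminin chain of muscle and fat basement membranes, was lower too (−1.26 ± 0.19, adjusted p = 0.00102). At 30 °C the list had a median of −0.54 with 1 gene lower, and for 2 of the 36 the 10 °C difference was lower than the 30 °C one by the test of the difference. The number of lower genes at 10 °C was 14 without the male sWAT library and 13 without the female aWAT library.

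Fibroblast and progenitor markers followed the same direction, with 8 of 16 lower and 1 higher. Pi16, a marker of universal fibroblasts in mice, had 63.8 and 134 FPKM in aWAT, against 298 and 299 FPKM in sWAT (−1.58 ± 0.32, adjusted p = 0.00503), and Fbln2, fibulin 2, had 6.68 and 10.7 FPKM, against 24.4 and 24.1 FPKM (−1.32 ± 0.24, adjusted p = 0.00254). The higher one was Dpp4, a progenitor marker that mesothelium also carries, which was higher at 30 °C as well (0.99 and 1.82, adjusted p = 0.0117 and 0.0016). At 10 °C its adjusted p was 0.0629, 0.065 and 0.0553 without the female sWAT, male sWAT and male aWAT library. The number of lower genes was 3, 5 and 2 without the female sWAT, male sWAT and female aWAT library. Of 31 secreted factors of fat 7 were lower and 3 higher. The higher count was near the 10.4% of all genes called higher, and 11.5% of all genes were called lower. Igfbp3, which binds insulin-like growth factors, had 4.86 and 1.55 FPKM, against 38.6 and 49.9 FPKM (−3.44 ± 0.59, adjusted p = 0.00262), and Angptl2, an angiopoietin-like protein, was also lower (−1.36 ± 0.27, adjusted p = 0.00422). The higher ones were the growth factors Fgf9 (1.19 ± 0.23) and Bdnf (1.49 ± 0.36) and the neurotrophic protein Metrn (0.93 ± 0.23), with adjusted p = 0.00948, 0.0211 and 0.0289. The number of lower secreted factors was 3, 3 and 2 without the female sWAT, male sWAT and female aWAT library, and of higher ones 1 without either sWAT library.

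Of 42 Wnt, BMP and TGF-β genes 3 were higher and 12 lower, with a median of −0.50. Among all genes 10.4% were called higher and 11.5% lower, so the count of higher genes did not exceed its share. Of the 42, 38 would have passed the filter on low values in the other bat libraries. Without the female sWAT library 39 were tested, and 40 without the male one. Wnt11, a ligand of the non-canonical branch, had 74.6 and 22.0 FPKM in cold aWAT, against 7.49 and 6.28 FPKM in cold sWAT (2.51 ± 0.45, adjusted p = 0.00474), and 74.1 and 72.0 FPKM in cold iBAT. The other higher genes were Wnt2b, a canonical ligand, and Rspo1, which strengthens Wnt signals and which mesothelium makes. Among the lower genes were Axin2, a target of canonical Wnt signalling, with 1.37 and 1.76 FPKM, against 5.53 and 8.12 FPKM (−1.49 ± 0.36, adjusted p = 0.0113), and Smad3, which carries the TGF-β signal (−1.03 ± 0.26, adjusted p = 0.0124). Both calls were lost without the male sWAT library (adjusted p = 0.0886 and 0.0905) and without the female aWAT library (adjusted p = 0.0827 and 0.102). The number of lower genes was 3, 2 and 0 without the female sWAT, male sWAT and female aWAT library, and the number of higher genes 1 without the female sWAT, male sWAT or male aWAT library.

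Macrophage genes were lower in cold aWAT. Of 13 tested 11 were lower, with a median of −1.34, where 11.5% of all genes were called lower. The list summed to 205 and 376 FPKM in cold aWAT, against 765 and 898 FPKM in cold sWAT. C1qb (ENSMUSG00000036905), a complement protein made by tissue macrophages, had 34.3 and 63.9 FPKM, against 155 and 170 FPKM (−1.67 ± 0.33, adjusted p = 0.00492). Cd68, a lysosomal protein of macrophages, had 4.10 and 15.5 FPKM, against 46.0 and 48.6 FPKM (−2.29 ± 0.50, adjusted p = 0.00857), and Tyrobp, a signalling adaptor, was also lower (−1.71 ± 0.35, adjusted p = 0.00554). At 30 °C limma called none of the 13 (2 higher and 0 lower at an unadjusted p under 0.05), and the list summed to 584 and 342 FPKM in aWAT, against 424 and 303 FPKM in sWAT. The count at 10 °C was 5, 2 and 1 without the female sWAT, male sWAT and female aWAT library, and the adjusted p of Cd68 was 0.0535 without the male sWAT library and 0.0589 without the female aWAT library.

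Of 16 endothelial genes of blood and lymph vessels 5 were lower and 1 higher, with a median of −0.54, and the number of lower genes was 1, 3 and 1 without the female sWAT, male sWAT and female aWAT library and 8 without the male aWAT library. Plvap, a protein of fenestrated vessels, had 21.4 and 22.3 FPKM in aWAT, against 46.5 and 43.7 FPKM in sWAT (−0.91 ± 0.18, adjusted p = 0.00409), and was lower at 30 °C as well (−1.40, adjusted p = 0.0103). Among all genes 10.4% were called higher and 11.5% lower, so the count of higher endothelial genes did not exceed its share. With the libraries scaled without their 10 highest genes, 9 endothelial genes were lower. Of 8 smooth muscle and pericyte genes 5 were lower, 2 without the female sWAT, male sWAT or female aWAT library and 3 without the male aWAT library. Des, desmin, which skeletal muscle also makes, had 0.473 and 0.453 FPKM, against 25.4 and 46.7 FPKM (−4.50 ± 0.29, adjusted p = 1.63e-05), and Cnn1, smooth muscle calponin, had 0.472 and 0.757 FPKM, against 6.79 and 7.90 FPKM (−2.27 ± 0.22, adjusted p = 0.000119).

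Some genes that mark the position of a depot differed at both temperatures. Tbx15 (ENSMUSG00000027868), a T-box factor of subcutaneous and brown fat in mice, had 0.255 and 0.131 FPKM in cold aWAT, against 9.43 and 10.5 FPKM in cold sWAT (−3.10 ± 0.27, adjusted p = 6.08e-05). At 30 °C it had 0.0607 and 0.190 FPKM in aWAT, against 11.2 and 7.70 FPKM in sWAT (−3.28 ± 0.27, adjusted p = 0.00102). Cold iBAT had 4.96 and 7.73 FPKM, so aWAT stood apart from both other depots in this gene. Hoxc10, a homeobox gene of posterior position, had 2.46 and 1.47 FPKM, against 10.2 and 17.3 FPKM at 10 °C (−2.20 ± 0.26, adjusted p = 0.000351), and was lower at 30 °C too (−1.58 ± 0.26, adjusted p = 0.0315). Shox2 was the other position gene called lower at both (−1.17 and −1.44, adjusted p = 0.00408 and 0.0245). Wt1 (ENSMUSG00000016458), a factor of visceral mesothelium and its descendants, had 3.51 and 4.93 FPKM, against 1.03 and 1.19 FPKM at 10 °C (1.39 ± 0.20, adjusted p = 0.00154). At 30 °C it had 7.43 and 8.54 FPKM, against 0.312 and 0.204 FPKM (2.75 ± 0.20, adjusted p = 0.000595), so both the level in aWAT and the gap between depots were larger in the warm (difference of differences −1.35 ± 0.28, adjusted p = 0.0164).

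Of 39 position factors tested 13 were lower and 4 higher at 10 °C. In the other bat libraries 37 of the 39 would have passed the filter on low values. Over all genes 11.5% were called lower and 10.4% higher, so the count of higher factors was near that share. At 30 °C 3 were lower, 2 higher and 34 not called, where 0.227% of all genes were lower and 0.662% higher. The 4 higher ones were Wt1, Tcf21, which was also called at 30 °C (1.37 and 1.84), Hoxa5 and Hoxa3. Hoxa5 had 20.3 and 21.4 FPKM in cold aWAT, against 5.85 and 6.78 FPKM in cold sWAT (1.68 ± 0.21, adjusted p = 0.000811), and 22.9 and 34.6 FPKM in cold iBAT. Prrx1, a factor of limb and body wall mesenchyme, was among the lower ones (−1.43 ± 0.23, adjusted p = 0.00139). The number of lower factors was 8 with quantile normalization, 6 without the male sWAT library and 6 without the female aWAT library.

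Mesothelial markers were higher in aWAT at both temperatures. Of 11 tested 8 were higher and 1 was lower at 10 °C, and 8 were higher at 30 °C. Of all genes 10.4% were called higher and 11.5% lower at 10 °C, and 0.662% higher at 30 °C. The count of lower markers was near its share. Upk1b, a uroplakin of mesothelium, had 8.57 and 16.0 FPKM in cold aWAT, against 0.347 and 2.63 FPKM in cold sWAT (2.63 ± 0.42, adjusted p = 0.00247), and 13.4 and 17.9 FPKM, against 0.105 and 0 FPKM in the warm (3.89 ± 0.42, adjusted p = 0.0016). Lrrn4 (2.50 ± 0.43), Bnc1 (1.92 ± 0.26) and Crb2 (1.59 ± 0.23) were the next examples (adjusted p = 0.00406, 0.00121 and 0.00176). The male cold sWAT library was above the female one for Upk1b, and also for Lrrn4, with 1.57 against 0.0137 FPKM. The lower gene was Gpm6a, which nerve also makes (adjusted p = 0.161, 0.0713 and 0.182 without the female sWAT, male sWAT and female aWAT library). The summed list did not follow these genes, at 110 and 274 FPKM in cold aWAT and 198 and 294 FPKM in cold sWAT.

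Since muscle genes filled the lower end, the lower genes with at least 1 FPKM in both sWAT libraries at 30 °C were also ranked, a choice made after the values were seen. The 10 largest included Lep, Des and the muscle genes Mylpf and Actn2. Of the other 6, 5 were lower in aWAT at 30 °C too. Tbx22, another T-box factor, had 0.0719 and 0.148 FPKM in cold aWAT, against 9.96 and 15.0 FPKM in cold sWAT (−3.48 ± 0.29, adjusted p = 4.66e-05), and −3.45 ± 0.29 at 30 °C. Cpxm1, a secreted carboxypeptidase-like protein of fat cell precursors, had 0.491 and 0.636 FPKM, against 25.7 and 17.6 FPKM (−3.73 ± 0.28, adjusted p = 2.95e-05), and −3.06 ± 0.28 at 30 °C. Gpnmb, a glycoprotein of lipid-laden macrophages, had 1.48 and 1.57 FPKM, against 66.4 and 35.6 FPKM (−4.20 ± 0.52, adjusted p = 0.000439), and −3.68 ± 0.52 at 30 °C. Tpd52l1 (−3.77 ± 0.33) and Lgals3, the lectin galectin 3 (−3.47 ± 0.28), were the other 2 (adjusted p = 7.47e-05 and 4.58e-05). The 6th, Spp1, osteopontin, had 5.25 and 24.5 FPKM, against 164 and 298 FPKM (−4.03 ± 0.64, adjusted p = 0.00176), and did not pass at 30 °C (−1.73 ± 0.64, adjusted p = 0.52).

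The difference between the depots itself changed with temperature. Set against the difference at 30 °C, from other libraries, the difference at 10 °C was larger or smaller in 486 genes (4.41% of those tested), 295 in the higher direction (2.68%) and 191 in the lower (1.73%). Of the 295, 290 were also called higher at 10 °C, and of the 191, 179 were called lower at 10 °C. Among the lists, 25 of 38 electron transport genes, 13 of 20 TCA cycle genes, 12 of 22 fatty acid oxidation genes and 8 of 32 thermogenic genes were among the 295, and 15 of 18 muscle genes and 4 of 13 macrophage genes among the 191. The muscle count includes genes that entered the test only through the cold sWAT libraries, so it is a description. Ucp1 led the higher direction, with 9.96 ± 0.50 (adjusted p = 3.01e-05), followed by Chga, Serhl, Pmp2, Rap1gap and Abhd8, a hydrolase of the α/β family, between 5.63 and 4.02. Tnnc1, Tcap, Tnni2, Tnnc2, Mylpf and Myh8 led the lower direction, between −6.91 and −5.15. Medians are again subtracted here, and the median of all genes was −0.19. The count was between 65 and 790 when 1 of the 8 libraries was left out, with 65 without the male cold sWAT library and 790 without the male cold aWAT library.

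Genes that separated the depots in both temperatures were few. Of the 98 genes called at 30 °C, 77 were called in the same direction at 10 °C (78.6% of the 30 °C calls and 3.2% of the 10 °C calls), 53 higher and 24 lower. Over all 11025 genes the differences at 10 °C and 30 °C correlated at r = 0.406, and over the 98 at r = 0.860, as a description across genes. The gene called in opposite directions was Alox12e, a lipoxygenase of a family of close relatives, chosen for naming after its values were seen. It had 12.8 and 16.4 FPKM in aWAT, against 54.9 and 58.6 FPKM in sWAT at 10 °C (−1.80 ± 0.54, adjusted p = 0.0334), and 79.8 and 49.0 FPKM in aWAT, against 11.2 and 2.38 FPKM in sWAT at 30 °C (3.22 ± 0.54, adjusted p = 0.0214). Its call at 10 °C was lost without each of the 4 cold libraries in turn, at adjusted p between 0.0672 and 0.176.

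**Figure D4:**
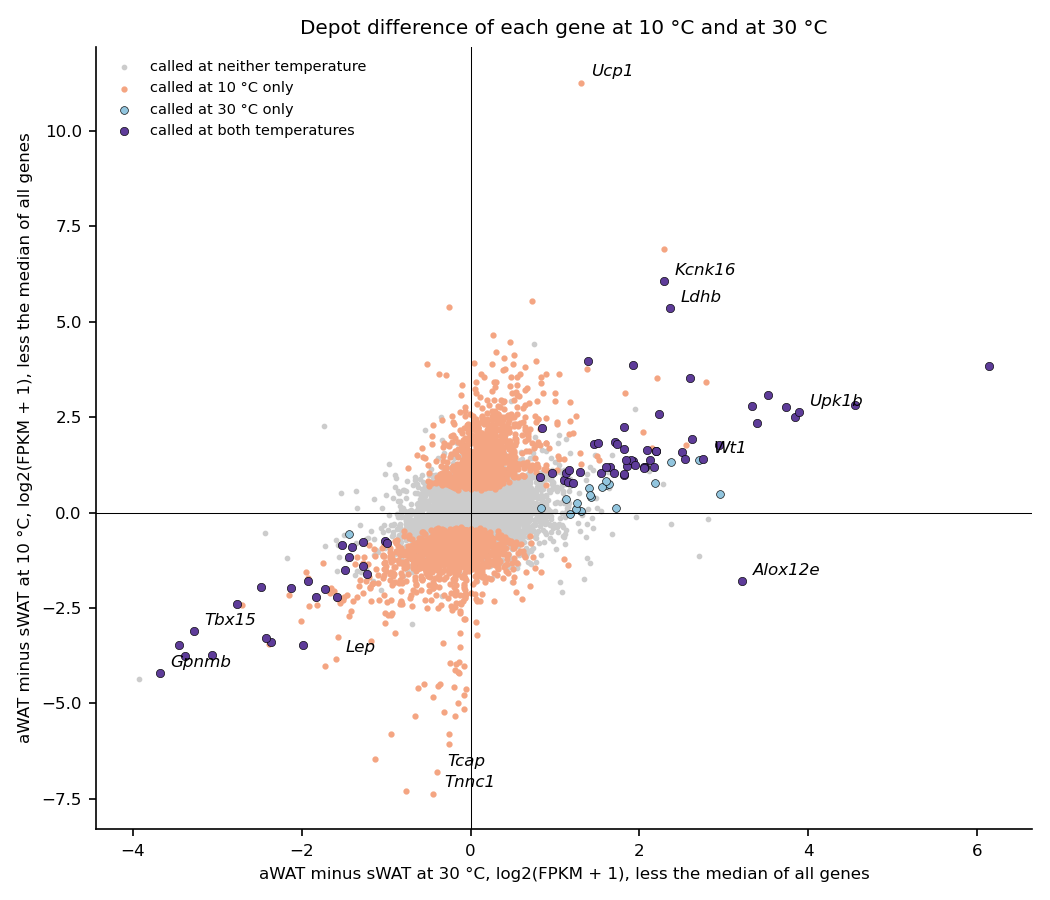
Difference between aWAT and sWAT at 10 °C (vertical) against that at 30 °C (horizontal) for 11025 genes, each on the log2(FPKM + 1) scale less the median of all genes, coloured by the temperature at which a gene was called. Most calls at 10 °C lie near 0 on the horizontal axis, with Ucp1 at 11.26 and Tcap at −6.79, while the 77 genes called in 1 direction at both temperatures, such as Tbx15 and Upk1b, run along the diagonal.

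Over all genes 10.4% were called higher and 11.5% lower at 10 °C. In the lists that follow, the counts of lower chaperone genes and of cell cycle genes were near those shares. None of 19 cytosolic ribosome genes was called by limma (1 higher and 1 lower at an unadjusted p under 0.05). Of 17 cholesterol synthesis genes 1 was higher, 0 without the female sWAT or the male aWAT library, and 1 was lower, 0 without each of the 4 cold libraries in turn. Of 18 chaperone genes 2 were lower, the small heat shock proteins Hspb1 (−1.35 ± 0.24, adjusted p = 0.00226) and Hspb6, and 1 was lower without the male sWAT library or the female aWAT library. Of 15 clock genes 3 were lower, Npas2, a partner of Bmal1 (−1.21 ± 0.22, adjusted p = 0.00297), Ciart and Bhlhe41, both repressors in the clock, and 1 was lower without the male sWAT or the female aWAT library. Of 10 cell cycle genes 1 was higher, Rrm2 of ribonucleotide reductase, with 2.48 and 4.62 FPKM, against 0.251 and 0.437 FPKM (1.82 ± 0.33, adjusted p = 0.00537), and 1 was lower, Bub1b of the spindle checkpoint (−1.10 ± 0.38, adjusted p = 0.0464, and 0.0667 to 0.239 without each cold library in turn). Of 16 interferon response genes Isg15, Mx1, Oasl1 and Irf7 were lower, and 0, 1 and 1 without the male sWAT, female sWAT and female aWAT library. None of 2 T and NK, 3 B cell and 7 granulocyte genes was called by limma (0 higher and 0, 1 and 2 lower at an unadjusted p under 0.05). Of 11 Schwann cell and nerve genes Cdh19, a cadherin, was higher (1.06 ± 0.24, adjusted p = 0.0201). Its call was lost without the female sWAT, male sWAT or male aWAT library (1.135, 0.96 and 0.905). The myelin genes Mbp, Prx and Egr2 and S100b were lower. Egr2 entered the test only through the cold sWAT libraries and was not tested without either of them. The calls of Mbp, Prx and S100b were lost without the female sWAT or the female aWAT library. That of S100b was also lost without the male sWAT library, and that of Prx without the male aWAT library. Of 5 red cell and platelet genes the platelet factor Pf4 was lower (adjusted p = 0.121, 0.12 and 0.241 without the female sWAT, male sWAT and female aWAT library). Of 4 skin genes Cdh1, the epithelial cadherin, was lower (−0.80), a call lost without the female aWAT library (−0.558). Cdh1 entered the test only through the cold sWAT libraries and was not tested without either of them. Of 9 tested genes of liver, gut, kidney and gonad, Apoa1, Apoa4 and Gdf9 were higher, all at single-digit FPKM or below in the 4 libraries. Without the female sWAT library Apoa1 did not pass (adjusted p = 0.0686), and Apoa4 did not pass without the male sWAT or the female aWAT library (adjusted p = 0.0653 and 0.0789). Without the female sWAT, male sWAT and female aWAT library the adjusted p of Gdf9 was 0.153, 0.162 and 0.321.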

How the data were processed

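The authors deposited FPKM per gene under mouse identifiers for each library, and per the submitters' processing notes used CASAVA 1.8. How reads were aligned, to which genome build, and how bat reads were assigned to mouse identifiers is not given in the sources used here. No FPKM was recomputed. Levels were taken as log2(FPKM + 1), and the 11025 of 14871 genes that reached 1 FPKM in 2 or more bat libraries were tested. One fit in limma 3.58.1 (R 4.3.3, empirical Bayes with trend, two-sided, Benjamini-Hochberg over all genes tested) held all 12 bat libraries in 6 groups of 2. Contrasts were aWAT minus sWAT at 10 °C, at 30 °C, and their difference. Printed differences have the median of all tested genes subtracted, while calls and p-values are of the unshifted coefficients. Named genes were the 10 largest differences each way, the 6 largest differences of differences each way, a set of classical genes and up to 5 called genes of each list, and others are named where they are few or complete a count. A few genes that meet this rule are not reported here. The members and lists were chosen with earlier results of these data known. Of 154 genes named, 137 have the same symbol in the annotation of the bat assembly ASM189008v1. Alternatives changed the pseudocount, filter, scaling and fit, blocked on sex, or left out 1 library.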

Additional observations from a re-analysis of the deposited data

Results flagged for a closer look

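The difference between aWAT and sWAT at 10 °C differed from that at 30 °C in 486 genes, by the contrast of differences in limma at an adjusted p under 0.05. The values below are those differences of differences on the log2(FPKM + 1) scale, less the median of all genes, for the genes named in the report, and a positive value means a higher one at 10 °C.

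Among thermogenic genes the values were 9.96 for Ucp1, 3.35 for Letmd1, 2.58 for Cpt1b, 2.17 for Clstn3, 2.12 for Esrra and 1.85 for Cox7a1. Among adrenergic receptors they were 2.59 for Adra1a and −2.06 for Adra2a. In the electron transport chain they were 2.08 for Cyc1, 2.04 for Ndufv1 and 1.83 for Ndufs1. In the list of the TCA cycle and pyruvate dehydrogenase they were 2.33 for Sucla2, 2.21 for the cytosolic Mdh1 and 2.16 for Pdhx. In fatty acid oxidation they were 3.91 for Hadha, 3.62 for Hadhb, 3.05 for Etfdh, 3.02 for Acadm and 1.38 for Crat. In triglyceride turnover and glycolysis they were 3.38 for Gk, 2.60 for Gpd2, 1.48 for Agpat3, 1.19 for Lpin1, 3.00 for Ldhb and 1.70 for Eno1. Of genes outside the lists, Chga had 5.63, Serhl 4.81, Pmp2 4.42, Rap1gap 4.38, Abhd8 4.02, Shd 4.00 and Kcnk16 3.77. Apoa4, an apolipoprotein, had 2.02.

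Among muscle genes the values are a description, since some of these genes entered the test only through the cold sWAT libraries. They were −6.91 for Tnnc1, −6.38 for Tcap, −5.81 for Tnni2, −5.53 for Tnnc2, −5.31 for Mylpf and −5.15 for Myh8. Next came −4.90 for Myl3, −4.87 for Ckm, −4.83 for Myh6, −4.66 for Atp2a1, −4.12 for Actn2 and −3.95 for Des. Other lower values were −2.33 for Cnn1, −2.31 for Mbp, −1.74 for C1qb, −1.52 for Isg15, −1.50 for Hspb1, −1.48 for Lgals3, −1.15 for Rxra and −5.01 for Alox12e. Wt1 had −1.35 and is higher in aWAT at both temperatures.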

How the results depend on the processing

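Of 135 named genes called at 10 °C, 28 lost the call under at least 1 alternative other than leaving out a library (67 of 1463 values) and 51 when a library was left out (123 of 528 values), and none changed direction. Reversed values were all of genes that did not pass. Pparg was −0.004 with a pseudocount of 5, −0.011 with no filter, −0.438 with quantile normalization, and between −0.07 and 0.152 when a library was left out. Leaving out a library put Cpt1a between −0.051 and 0.985, Acsl1 between −0.102 and 1.808 and Acly between −0.166 and 0.476. The negative values came without the male cold aWAT library for Cpt1a, the male cold sWAT library for Acsl1 and the female cold aWAT library for Acly.

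The count at 10 °C lay between 957 and 2415 when 1 library was left out, that of the difference of differences between 65 and 790, and that at 30 °C between 29 and 60. When only the libraries of the contrast were fitted, 1705 genes were called at 10 °C, 885 higher and 820 lower. The difference of differences then had 171 genes and the 30 °C contrast 17. A filter at 5 FPKM left 47 at 30 °C. The split at 10 °C was 1146 higher and 1270 lower, and 890 and 2076 when scaled without the 10 highest genes, which also moved the median of all genes from −0.10 to −0.27. For the difference of differences that scaling gave 220 higher and 271 lower, and quantile normalization gave 62 higher and 42 lower at 30 °C.

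The labels give 1 female and 1 male per group but do not tie libraries to animals. Deviations from the group means of same-sex libraries correlated at 0.346 between aWAT and sWAT at 10 °C and at 0.547 at 30 °C, and with only 2 pairs a group they were not taken as paired. A replicate block on sex gave 2710 genes at 10 °C, 109 at 30 °C and 528 for the difference of differences. A replicate block on sex within temperature, added after seeing the data, gave 3650, 154 and 1336. Of the named genes that did not pass at 10 °C, Prdm16, Cox6b1, Idh2, Fasn, Rbp4 and Myl2 passed with this block (adjusted p = 0.0348, 0.0161, 0.0256, 0.0385, 0.0401 and 0.046). Read depth is unknown, and 2 libraries per group limit the precision.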
